A study of Mus musculus with 6 samples.

Results

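The FGF pathway was followed at 37 genes: the 22 mouse Fgf genes, the 4 receptor genes Fgfr1 to Fgfr4, and 11 feedback and target genes, namely Spry1 to Spry4, Spred1 to Spred3, Dusp6, Etv1, Etv4 and Etv5. The genes are listed by name as pathway components. No peak value enters the list, although it was chosen with earlier results of these data known. A gene had a peak when at least 1 bp of an H3K4me1 peak fell in its GENCODE vM21 body or in the 5 kb before or after it. The 36 genes that lie on a chromosome of the peak lists were measured, out of 21755 protein-coding genes on those chromosomes. Spry3 was not measured, because GRCm38 places it on an unplaced scaffold (GL456233.1) and the lists hold 0 peaks there.

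The series has 6 samples of wild-type mouse whisker pads at embryonic day 12, strain B6/J2, with 3 H3K4me1 and 3 IgG control samples. CUT&Tag, which cuts and tags chromatin where an antibody is bound, was run on pads dissociated to single cells, so each library mixes epithelium, mesenchyme and every other cell of the pad. No antibody background stands beside the values, as the IgG samples were not used here. H3K4me1, histone H3 with 1 methyl group on lysine 4, marks active and poised enhancers and the borders of active promoters, and a peak does not show that the gene was transcribed.

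FGF ligands are secreted proteins that bind receptor tyrosine kinases on neighbouring cells and, through Ras and ERK, raise the expression of target genes. Inhibitors of the same route, such as Sprouty, Spred and Dusp6, form its negative feedback, and ETS transcription factors of the Etv group carry the response. In developing skin and face, FGF signals pass between the surface epithelium and the mesenchyme under it during the growth of hair and whisker follicles.

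The lists held 16788, 12969 and 13998 peaks in replicates 1, 2 and 3. The total signal of a peak is the fragment pileup summed over its bases, and its percentile is the percent of that replicate's peaks with the same or a lower total. For replicates 2 and 3, the source name reads adult kidney and the title whisker pad. Grouping followed the title. Peaks and percentiles of single genes are given per replicate. Coverage, same-length shares and some other summaries are mostly given as means over the 3 replicates, which include replicates 2 and 3. Of 12 facial mesenchyme markers, 12, 12 and 10 carried a peak in replicates 1, 2 and 3, where genes of the same length had 18.8% ± 3.3. Of 12 surface ectoderm markers, 8, 8 and 5 did, against 25.2% ± 2.5. Of 14 adult kidney markers, 4, 4 and 2 carried a peak, a mean of 23.8% ± 8.3 (SD, n = 3) against 27.3% ± 2.4 for all genes of the same length. In such mixed tissue, fewer marked cells and less mark per cell cannot be told apart.

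H3K4me1 peaks were found at more FGF pathway genes than at other genes of their length. A peak was present at 24, 21 and 16 of the 36 genes in replicates 1, 2 and 3, where the share over all protein-coding genes was 24.9%, 22.6% and 19.6%. The members' share was 56.5% ± 11.2 (SD, n = 3), and genes of the same length had 25.9% ± 2.5. The difference was 38.2, 32.5 and 20.9 percentage points in the 3 replicates, with a mean of 30.6 ± 8.8, and was above 0 in 3 of 3. The exact sign-flip permutation test (two-sided) gave p = 0.25, the smallest that 3 replicates allow, and 0.25 after adjustment over the 3 comparisons made. A peak was present in all 3 replicates at 13 members, 36.1% of them, where the share was 15.5% over all genes and 18.7% over genes of the same length. Another 10 members had no peak in any replicate, where the share over all genes was 71.2%.

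The 3 classes did not carry peaks equally often. Ligands had a peak at 12, 10 and 7 of 22 genes (43.9% ± 11.4, SD, n = 3), receptors at 4, 4 and 2 of 4 (83.3% ± 28.9) and feedback genes at 8, 7 and 7 of 10 (73.3% ± 5.8). Genes of the same length as each class had 26%, 32.4% and 23.2%. The 22 ligand genes include the intracellular Fgf11 to Fgf14. The 18 secreted ligands alone had a peak at 10, 9 and 7 genes (48.1% ± 8.5, SD, n = 3), against 20.6% ± 3.0 for genes of the same length. The class differences below use all 22. Feedback genes exceeded ligands by 25.5, 24.5 and 38.2 percentage points, a mean of 29.4 ± 7.6 (exact sign-flip permutation test, n = 3, two-sided p = 0.25). Receptors exceeded ligands by 45.5, 54.5 and 18.2 points, a mean of 39.4 ± 18.9 (exact sign-flip permutation test, n = 3, p = 0.25) in the full window. When only the gene body was read, the mean was 6.06 points (exact sign-flip permutation test, n = 3, p = 0.75), and in 1 of the 3 replicates receptors were below ligands. This second difference rests on 4 genes, of which Fgfr3 and Fgfr4 had their peaks outside the gene body.

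**Figure D1:**
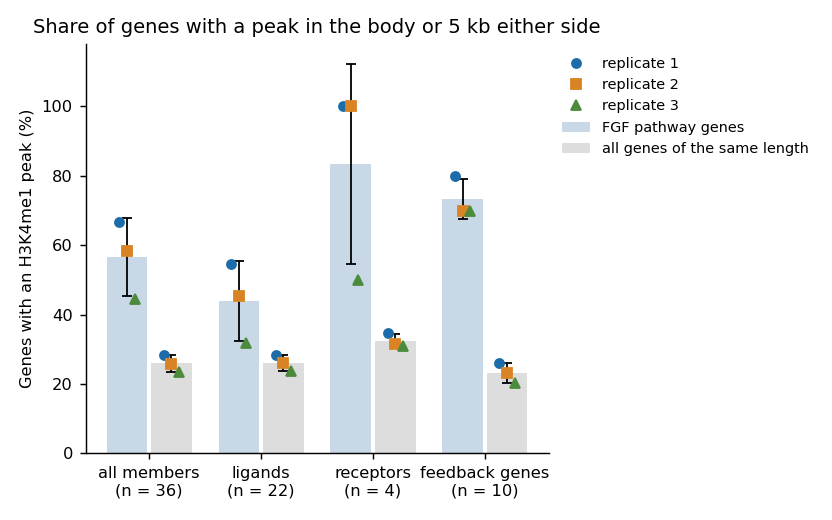
Share of genes with an H3K4me1 peak in the body or 5 kb either side (y axis, percent) for all measured members and for each class. Blue bars are FGF pathway genes and grey bars all protein-coding genes of the same length, as the mean of 3 replicates with SD, and symbols are the replicates. Feedback genes lay at 70.0% to 80.0%, above their same-length share in every replicate.

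Among the members, the strongest peaks by total signal lay in the receptor genes Fgfr1 and Fgfr2. By maximum signal, the strongest Fgf1 peak stood higher in replicates 1 and 2, at 211 and 202 against 117 and 138 for Fgfr1. In replicate 3 it was lower, at 56 against 89. Percentiles below are by total signal. The strongest Fgfr1 peak was at percentile 97.0, 96.5 and 95.9 in replicates 1, 2 and 3 (96.5 ± 0.6, SD, n = 3), and the strongest Fgfr2 peak at 97.6, 99.2 and 99.6 (98.8 ± 1.0). Over all genes with a peak, the median of the highest percentile was 61.8, 62.7 and 60.6, and the upper quartile began at 85.2, 85.1 and 84.8. Both receptors stood above that quartile in every replicate. Fgfr1 encodes the receptor that predominates in mesenchyme, and Fgfr2 has splice forms that separate epithelial from mesenchymal ligand binding.

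In Fgfr1, the peaks lay in introns downstream of the start. The strongest was at chr8:25531990-25539315 in replicate 1 (GRCm38), with its highest pileup 18.1 kb from the RefSeq start, and at 18.1 and 17.8 kb in replicates 2 and 3. A second peak, with its highest pileup at 25, 25 and 24.3 kb, reached percentile 93.7, 88.2 and 88.3. A further peak about 4.04 kb before the RefSeq start was found in replicates 1 and 2, inside the longer GENCODE gene. Peaks covered 29.9% ± 2.7 of the Fgfr1 window, and 37 of 1087 genes in its length bin (3.4%) were covered as highly.

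In Fgfr2, an almost continuous intronic block lay near the start. GENCODE vM21 gives Fgfr2 a span of 2961 kb through 1 long transcript, which takes in many other genes, so the RefSeq body of 104.4 kb is used here for its peaks. That window held 7, 5 and 4 peaks. The block covered chr7:130242231-130266121 in replicate 2 and chr7:130243901-130265162 in replicate 3, lengths of 23891 and 21262 bp, and was split in replicate 1 into peaks of 13333 and 8718 bp. Separate peaks with their highest pileup 61.0 to 62.0 kb into the gene reached percentile 92.3, 89.6 and 93.8. Another lay near the 3′ end, 101.1 to 101.2 kb from the start, at percentile 54.5, 35.6 and 61.7.

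The 200 bp around the highest pileup of the strongest receptor peaks are shown because these peaks had the highest total signal of all members. They are given on the forward strand of GRCm38, chr8:25536761-25536960 for Fgfr1 (replicate 1) and chr7:130244774-130244973 for Fgfr2 (replicate 3), both intronic. The Fgfr2 window holds the highest pileup of replicate 3 only, 21.9 kb from the RefSeq start. In replicates 1 and 2 it lay elsewhere in the block, at 18.3 and 18.4 kb. Capitals would mark the ETS letters AGGAAG or the TCF/LEF letters CTTTGA on either strand, and neither window held them.
Fgfr1: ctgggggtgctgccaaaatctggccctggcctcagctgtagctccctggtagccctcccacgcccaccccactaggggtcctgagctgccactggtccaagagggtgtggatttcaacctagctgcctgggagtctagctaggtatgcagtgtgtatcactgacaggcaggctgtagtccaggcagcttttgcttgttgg
Fgfr2: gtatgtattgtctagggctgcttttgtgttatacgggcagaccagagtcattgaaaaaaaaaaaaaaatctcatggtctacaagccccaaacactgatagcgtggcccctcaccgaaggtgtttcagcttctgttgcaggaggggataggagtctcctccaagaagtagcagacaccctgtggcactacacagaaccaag

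The other receptors carried only weaker peaks beside the gene. Fgfr3, which restrains cartilage growth, had a peak at percentile 34.7 and 28.1 in replicates 1 and 2, and none in replicate 3. Its near edge lay 4.02 and 3.84 kb before the RefSeq start, just inside the 5 kb limit. Further upstream, a block of 14.9, 14.7 and 10.7 kb stood at percentile 97.2, 97.7 and 91.2 in the 3 replicates, with its highest pileup 25, 26.6 and 21.7 kb before the start. It lay in no protein-coding gene body, at chr5:33687983-33702856 in replicate 1. It is not counted in the gene's window. Fgfr4, known best as the liver receptor for Fgf15, had a peak only past its 3′ end, at percentile 0.34 and 13.8 in replicates 1 and 2.

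Of the feedback genes, 6 of 10 had a peak in all 3 replicates (Spry2, Spry4, Spred2, Dusp6, Etv1 and Etv5). The share over genes of the same length was 15.9%. Etv4 alone had no peak in any replicate. Receptors had a peak in all 3 replicates at 2 of 4 genes, against 24.4%. Ligands had one at 5 of 22 (22.7%), against 18.9%, so the ligand count is close to the background. The median of the feedback genes' highest percentiles was 75.6 ± 3.6 (SD, n = 3) over the members with a peak. It was 51.5 ± 6.2 for ligands and 75.3 ± 19.5 for receptors. By replicate it was 78.0, 71.5 and 77.3 for feedback genes, and 65.9, 62.3 and 97.7 for receptors. The receptor value of replicate 3 rests on 2 genes, Fgfr1 and Fgfr2, as Fgfr3 and Fgfr4 had no peak there. These medians leave out the members without a peak.

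Dusp6, the phosphatase that switches off ERK, had the highest mean coverage of all members, although Fgf17 was covered more in replicates 1 and 2 (55.7% and 64.6%, against 48.8% and 63.0%). Its strongest peak was at percentile 81.2, 76.2 and 91.3 in replicates 1, 2 and 3. That peak lay across the 3′ end and beyond, at chr10:99266953-99271476 in replicate 1, chr10:99267042-99271615 in replicate 2 and chr10:99264091-99270433 in replicate 3. Its highest pileup was 5.76, 5.76 and 4.73 kb from the start of a gene 4.26 kb long. A weaker peak covered the start in replicates 1 and 2, at percentile 2.6 and 28.1. In replicate 3, no peak covered that start, and the one peak began 0.86 kb inside the gene. Peaks covered 52.1% ± 9.7 of the window (SD, n = 3), and 12 of 1087 genes in the length bin (1.1%) were covered as highly.

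The 200 bp at the highest pileup of the Dusp6 peak of replicate 3 are shown first, because that window held both searched motifs. It lies 3′ of the gene at chr10:99267865-99268064 and is given on the forward strand. In replicates 1 and 2 the highest pileup lay outside this window, 5.76 kb from the start. The 250 bases before the RefSeq start (chr10:99262981-99263230, forward strand, GRCm38.p6) follow, because peaks covered 100% of this promoter in replicates 1 and 2 and 0% in replicate 3. Capitals mark AGGAAG, the core of ETS sites, or CTTTGA, the core of TCF/LEF sites, on either strand. The promoter match is CTTCCT, the reverse complement of AGGAAG.
Dusp6 peak: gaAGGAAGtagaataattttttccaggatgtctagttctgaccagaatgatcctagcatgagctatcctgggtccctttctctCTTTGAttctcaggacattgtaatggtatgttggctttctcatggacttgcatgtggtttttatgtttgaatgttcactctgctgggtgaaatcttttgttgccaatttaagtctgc
Dusp6 promoter: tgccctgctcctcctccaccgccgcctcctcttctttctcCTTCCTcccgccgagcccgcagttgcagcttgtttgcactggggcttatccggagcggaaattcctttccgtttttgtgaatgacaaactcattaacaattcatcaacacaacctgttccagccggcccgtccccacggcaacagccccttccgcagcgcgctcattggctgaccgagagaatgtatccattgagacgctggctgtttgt

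The peak window held 1 ETS and 1 TCF/LEF match, and the promoter 1 ETS match. The 200 bp at the highest pileup of Fgf9 and of Fgf18, not shown, held no match of either kind. Such letters are common: among 200-bp windows at all peaks of replicate 3, 24.0% held AGGAAG and 14.0% held CTTTGA, and among all 32851 RefSeq promoters of 300 bp the shares were 35.4% and 16.0%. A match of letters is no evidence of binding.

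The Sprouty genes, which encode inhibitors of receptor tyrosine kinase signalling to ERK, had a peak at all 3 measured members in replicates 1 and 2 and at 2 in replicate 3, against 15.2% ± 4.1 (SD, n = 3) for genes of the same length. Spry4 was the strongest by total signal, at percentile 90.1, 93.8 and 90.3 in replicates 1, 2 and 3. By maximum signal it was at percentile 55.8, 75.5 and 68.1, below Spry2 at 95.2, 92.4 and 80.1. Peaks covered 39.6% ± 14.3 of the Spry4 window (SD, n = 3), and 12 of 1088 genes in the length bin (1.1%) were covered as highly. Its peaks ran through the first part of the gene, with the highest pileup 9.31, 5.25 and 8.33 kb from the start. Spry2 had a peak at percentile 75.7, 71.5 and 77.3, and its highest pileup lay at 3.12, 3.15 and 3.12 kb in an exon, within 26 bp over the 3 replicates. Spry1 had a peak at 3.07 kb, also in an exon, in replicates 1 and 2 (percentile 40.8 and 38.6). In replicate 3 the nearest peak to Spry1 was 13.3 kb from its start, the shortest such distance among members without a peak in their window. That peak, at percentile 77.8, 47.5 and 63.1, lay 14.5 to 17.2 kb downstream of the start in all 3 replicates.

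The Spred genes, whose products inhibit Ras, differed among themselves. Spred2 had 3, 4 and 4 intronic peaks, the strongest at percentile 88.4, 50 and 71.4, and a peak with its highest pileup at 48.3 to 48.4 kb was shared by all 3 replicates. Spred1 had a peak only in replicate 3, at percentile 10.6, and Spred3 only in replicate 1, at percentile 0.7, where the peak also overlapped the neighbouring gene Ggn. Spred1 also had peaks 89.8 to 89.9 kb downstream of its start at percentile 53.6, 66.4 and 76.3.

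Among the ETS factor genes, Etv5 was marked at 1 place in every replicate. Its peak reached percentile 80.2, 77.6 and 75.5, at chr16:22427712-22431757 in replicate 1, with the highest pileup at 9.94, 9.97 and 9.97 kb in an intron, within 35 bp. Replicate 1 also had a weak peak before the start, at percentile 17.7. Etv1 had a peak in each replicate, at percentile 21.5, 12 and 86.2, but not at the same place. Replicates 1 and 3 shared a peak at 67.9 kb, replicates 2 and 3 shared another at 7.91 to 8.62 kb, and no region was common to all 3. Etv4 had no peak in its window. The nearest were 27.9 and 28.1 kb upstream in replicates 1 and 2, at percentile 38.6 and 25.7, and 91.7 kb away in replicate 3.

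The most strongly marked 200 bp of Etv5 (chr16:22429533-22429732, forward strand, intronic, replicate 1) are shown because the highest pileup fell there in all replicates. The window held neither AGGAAG nor CTTTGA on either strand.
Etv5: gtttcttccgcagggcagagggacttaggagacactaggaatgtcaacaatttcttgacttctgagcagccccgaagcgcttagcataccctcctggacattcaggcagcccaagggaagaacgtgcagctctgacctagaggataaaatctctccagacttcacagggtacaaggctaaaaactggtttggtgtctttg

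**Figure D2:**
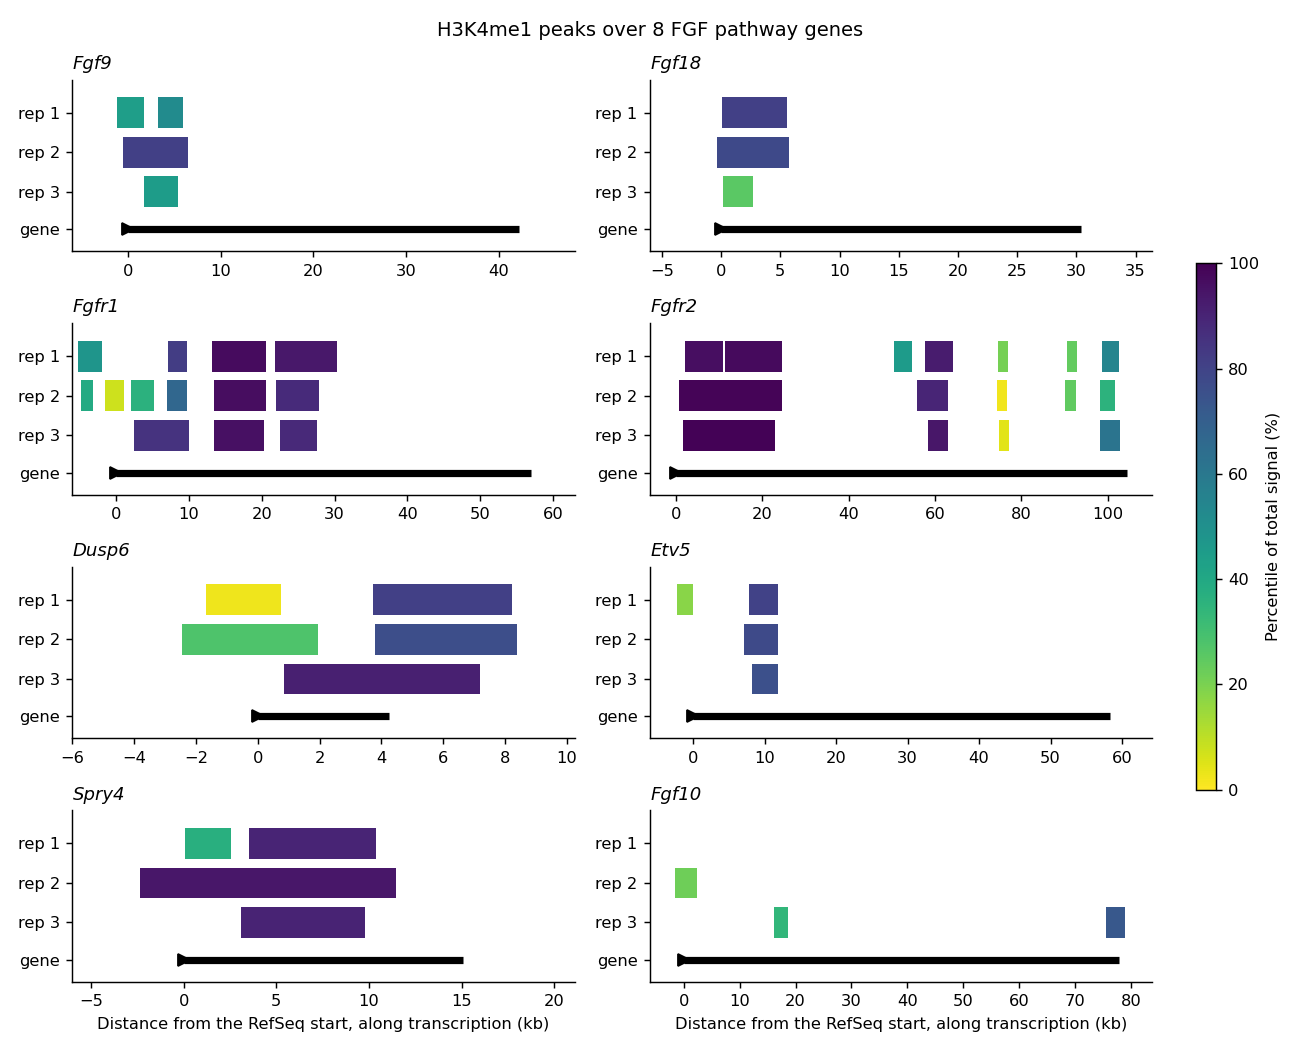
Position of each H3K4me1 peak (bars) relative to the RefSeq start of 8 genes, in kb along the direction of transcription, with 1 row per replicate and the gene body in black. Bar colour is the percentile of total signal. The Fgfr1, Fgfr2 and Etv5 intron peaks recur in the 3 replicates, whereas the Fgf10 peaks of replicates 2 and 3 lie at different places.

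The Fgf8 subfamily of epithelial signals (Fgf8, Fgf17 and Fgf18) had a peak at 3, 3 and 2 of its 3 genes, where genes of the same length had 15.4% ± 3.4 (SD, n = 3). The Fgf9 subfamily (Fgf9, Fgf16 and Fgf20) had one at 3, 3 and 1 of 3, against 19.3% ± 3.2. The endocrine ligands Fgf15, Fgf21 and Fgf23, which act on bile acid, energy and phosphate balance, had 0 of 3 in every replicate, against 13.5% ± 4.2 for genes of their length, so the count is close to the background. The intracellular Fgf11 to Fgf14, which are not secreted and bind sodium channels, had 2, 1 and 0 of 4. Genes of their length had 50.3% ± 2.2. That share mixes unlike lengths, as Fgf11 spans 5.79 kb and Fgf12 to Fgf14 span 506 to 699 kb. The Fgf4 subfamily had a peak only at Fgf6, in replicate 1, against 17.8% ± 3.7. The subfamilies hold 2 to 4 genes each, and no test was made between them.

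Fgf18, a ligand with a known part in skeletal growth, had a peak at its start in all replicates, at percentile 81.0, 77.8 and 25.4. The highest pileup lay at 1.90, 1.99 and 1.94 kb in an intron. Fgf9 had its strongest peak at percentile 52.3, 81.2 and 45.1. Fgf17 had a peak over its start at percentile 68.6, 60.8 and 1.0, and replicates 1 and 2 had a second, 3′ of the gene, that also overlapped Dmtn. For Fgf17 and Fgf18, replicate 3 stood far below the others, and the cause was not tested.

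Fgf8, the signal of the facial epithelium and limb ridge, had a peak at its 3′ end in replicates 1 and 2, at percentile 51.2 and 3.9, with the highest pileup at 5.68 kb in both, and none in replicate 3. A weak peak upstream in replicate 2 (percentile 5.7) also overlapped Npm3. More distant peaks recurred. A peak inside Fbxw4, with its highest pileup 86.0, 86.0 and 86.4 kb downstream of the Fgf8 start, was found in all 3 replicates at percentile 70.4, 34.4 and 61.5 (chr19:45654681-45657598 in replicate 1). Replicates 1 and 3 shared a peak 25.2 and 25.1 kb downstream, outside any protein-coding gene, at percentile 57.8 and 41.0. The gene on which a distant peak acts was not measured.

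Fgf7, made by mesenchyme and read by epithelium through Fgfr2, had 1 peak over its start in each replicate, at percentile 5.3, 14.7 and 50.05, which also overlapped Fam227b. Among the promoters read from the RefSeq table, peaks covered that of Fgf7 by 100% in all 3 replicates. The RefSeq starts of Fgf1 and Fgf17 also lay inside a peak in all 3 replicates, and not every member's promoter was read. The 250 bases before the Fgf7 start are shown (chr2:126034408-126034657, forward strand, GRCm38.p6). They held neither AGGAAG nor CTTTGA.
Fgf7 promoter: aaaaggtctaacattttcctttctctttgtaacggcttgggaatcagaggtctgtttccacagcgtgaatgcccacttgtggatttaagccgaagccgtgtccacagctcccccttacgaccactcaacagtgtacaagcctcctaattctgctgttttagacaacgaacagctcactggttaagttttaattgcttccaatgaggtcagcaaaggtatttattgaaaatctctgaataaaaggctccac

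Fgf10, which acts on the same receptor and directs epithelial budding, had no peak in replicate 1. Replicate 2 had a peak over the RefSeq start at percentile 22.1, and replicate 3 had peaks 17.9 and 77.4 kb into the gene at percentile 34.0 and 72.7. No Fgf10 peak was common to any pair of replicates. Fgf1 had a peak with its highest pileup 21.9 kb into the gene in all 3 replicates, at percentile 91.0, 77.1 and 54.9, but every Fgf1 peak also lay in the body of Arhgap26, which overlaps it, so the 2 genes cannot be told apart. Fgf2 had peaks in replicates 1 and 3 only, at percentile 24.0 and 33.8 at most, with a shared intron peak at 35.4 to 35.7 kb. The strongest Fgf2 peak of replicate 3 also overlapped Nudt6.

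The remaining ligands had peaks in at most 2 replicates, and none of these in replicate 3. Fgf11 had a peak at percentile 73.5 and 80.9 in replicates 1 and 2, shared with the overlapping gene Tmem102. Fgf16 had one near its start at percentile 22.5 and 45.0, and Fgf20, a signal of hair placodes, one at percentile 8.3 and 5.9 over its RefSeq start. Fgf6 (percentile 58.5) and Fgf14 (percentile 10.2) had a peak in replicate 1 alone. No peak was found in any replicate at Fgf3, Fgf4, Fgf5, Fgf12, Fgf13, Fgf15, Fgf21, Fgf22 and Fgf23. From their starts the nearest peak lay 22.9 to 119 kb away, except at Fgf13, where it was at least 1307 kb away, and in replicate 3 at Fgf23 (176 kb) and Fgf5 (294 kb). Fgf5, which ends hair growth, had its nearest peaks at 84.2 and 83.2 kb in replicates 1 and 2, in Prdm8.

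**Figure D3:**
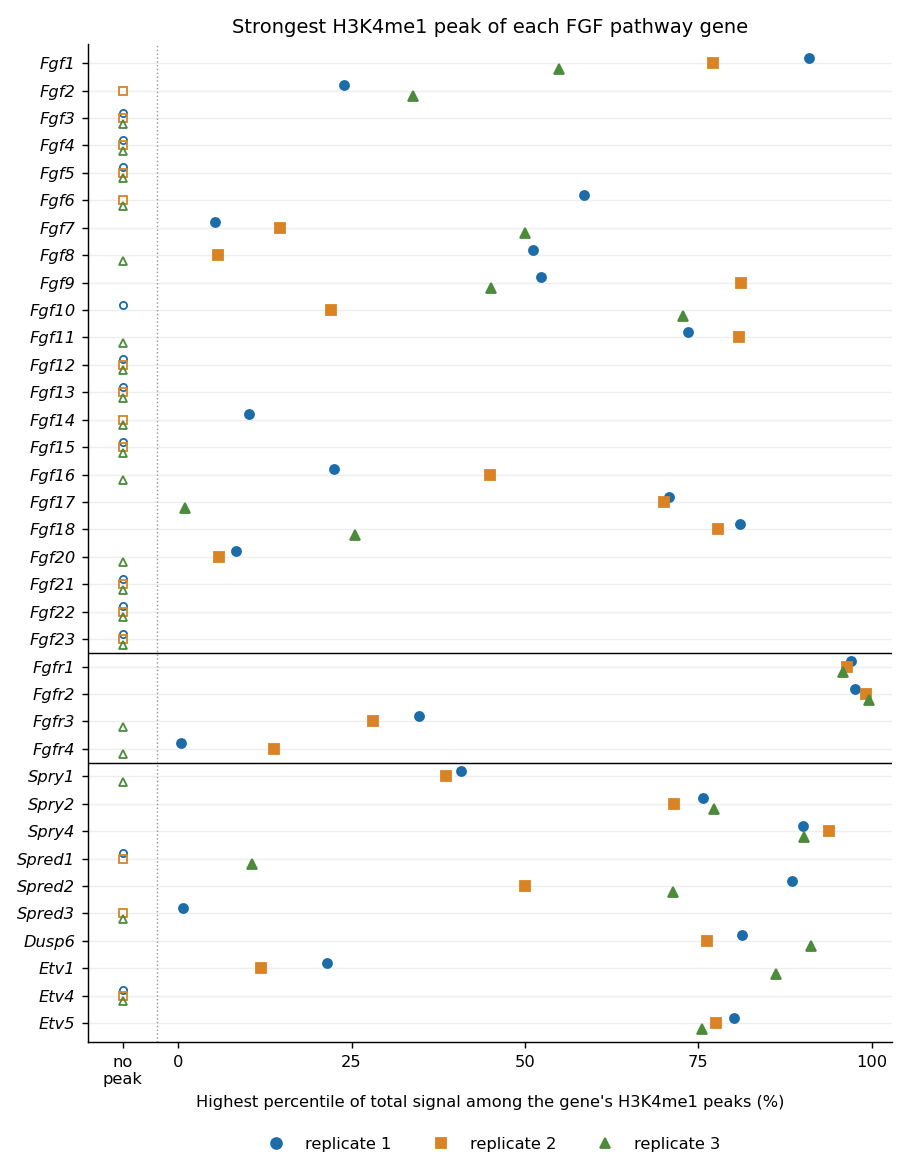
Highest percentile of total signal among the H3K4me1 peaks of each member (x axis, percent) in replicates 1 to 3, with genes in rows and the classes divided by lines; open symbols at the left are replicates with no peak. Fgfr1, Fgfr2 and Spry4 lay at 90.1 or above in every replicate. No peak was found in any replicate at 9 of 22 ligands, where the share over all genes was 71.2%.

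By count, more peaks lay inside the genes than at their starts. With Fgfr2 read by its RefSeq window, the members held 45, 39 and 32 distinct peaks. Of these, 12.7% ± 3.1 (SD, n = 3) had their highest pileup within 1 kb of the RefSeq start, 75.1% ± 11.0 further inside the gene, 6.4% ± 5.6 upstream and 5.8% ± 2.4 downstream. Together the gene bodies span far more bases than the 1 kb on each side of the starts. These shares therefore do not compare the density of peaks. A peak within 1 kb of any annotated start was found in all 3 replicates at 8 members (Fgf1, Fgf7, Fgf9, Fgf17, Fgf18, Fgfr1, Fgfr2 and Dusp6), where the share over all genes was 6.17%. These 8 are 5 ligands, 2 receptors and 1 feedback gene. By the RefSeq start alone there were 5, without Fgf9, Fgfr1 and Fgfr2.

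At greater distance, a peak within 100 kb of the start was present in all 3 replicates at 23 members, 10 ligands, 4 receptors and 9 feedback genes, where the share over all genes was 38.4%. The members had a median of 2.33 peaks within 100 kb, as a mean over replicates, and all genes 0.67. Dusp6 had 7, 8 and 9 peaks in that range and Spry4 had 9, 7 and 7. Some of these lie over other genes: Fgf21 had 9, 7 and 3 such peaks, all outside its own window, and Fgf4 and Fgf15 share theirs.

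**Figure D4:**
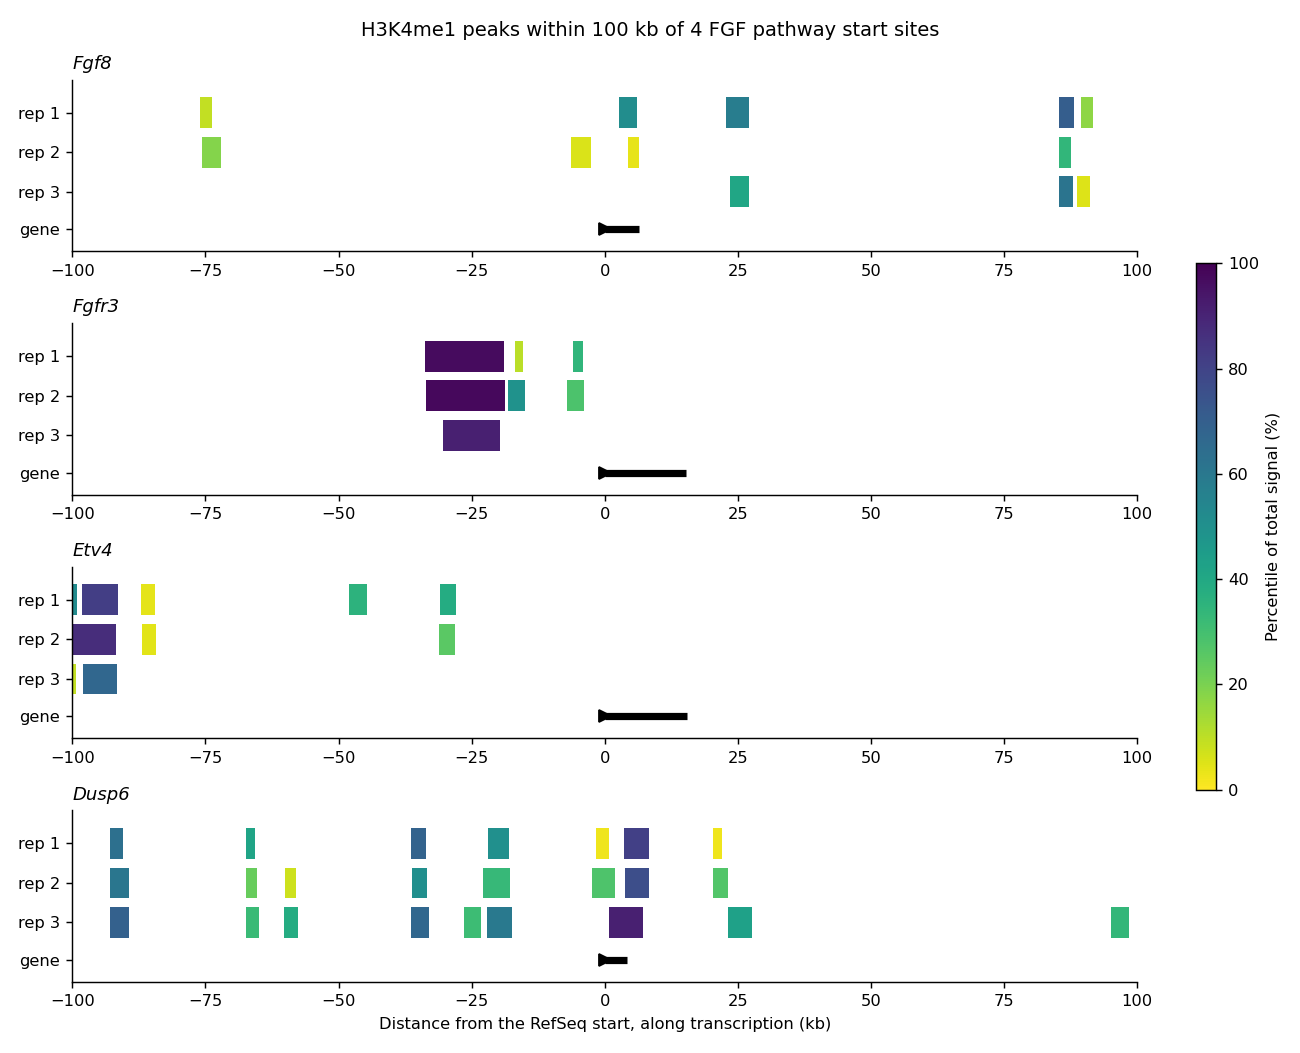
H3K4me1 peaks within 100 kb of the RefSeq start of 4 genes, in kb along the direction of transcription, with 1 row per replicate, the gene body in black and the percentile of total signal as colour. A block at percentile 91.2 to 97.7 stands upstream of Fgfr3 in every replicate, and Etv4 has no peak closer than 27.9 kb.

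The regions that only some replicates held differed in base composition. The peaks of the 3 replicates merged into 53 regions at members, 20 of which were called in all 3. The 12 regions called in replicates 1 and 2 but not 3 had a median G and C content of 52.4% (47.3% to 57.6%), and the 8 called in replicate 3 alone had 38.2% (33.7% to 47.1%). Over the genome, the 2628 regions of the first kind had a median of 52.4% and the 2487 of the second 41.5%. Of the 20 shared regions, 6 had more than 50% G and C. All 6 held a smaller share of the list's signal in replicate 3 than in replicate 2 (median log2 ratio -0.83). For the other 14 the median was 0.11. With replicate 1 set against replicate 2, the medians were -0.38 and -0.15 in the same order. The regions of Fgf8, Fgf11, Fgf16, Fgf20, Fgfr3, Fgfr4 and Spry1 were among those missing in replicate 3. The regions of replicate 3 alone lay at Fgf2, Fgf10, Spred1, Spred2 and Etv1. The part of base composition in these differences was not tested.

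**Figure D5:**
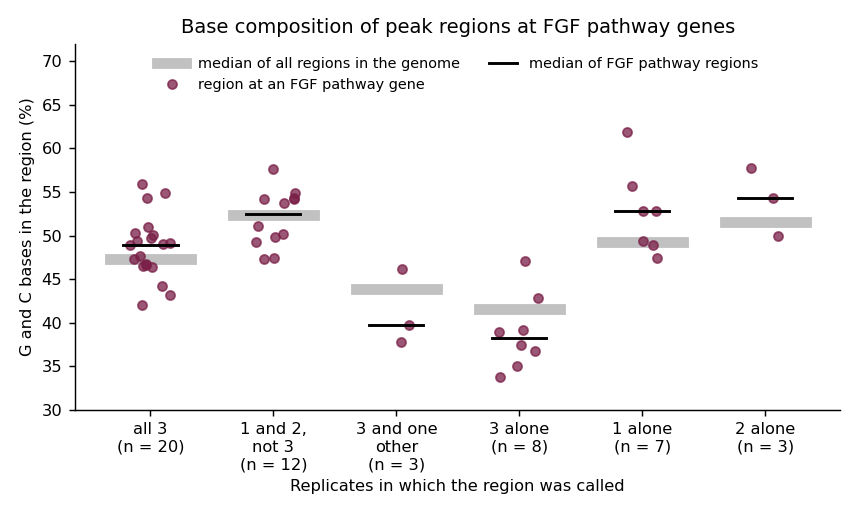
G and C content (y axis, percent) of the 53 regions at FGF pathway genes (points), by the replicates in which each was called; black lines are their medians and grey bars the medians of all regions in the genome. Regions found in replicate 3 alone lie at 33.7% to 47.1%, and those in replicates 1 and 2 alone at 47.3% to 57.6%.

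Of 51 other genes of the pathway, such as co-receptors, heparan sulphate enzymes, adaptors and kinases, 30, 27 and 26 carried a peak, and 23 did in all 3 replicates. Their share was 54.2% ± 4.1 (SD, n = 3) against 31.6% ± 2.1 for genes of the same length. For a peak in all 3 replicates the shares were 45.1% and 23.9%. The genes named next were picked after their values were seen. Il17rd, which encodes the inhibitor Sef, reached percentile 99.4, 99.4 and 99.5, and Ext2, an enzyme of heparan sulphate chain growth, 99.8, 99.9 and 99.5. Of the 51, 20 had no peak in any replicate, where the share over all genes was 71.2%. The signal carriers Frs2, Grb2 and Sos1 were among those with none in any replicate. Map2k1, which phosphorylates ERK, had 1 peak in each, at percentile 76.3, 70.0 and 89.7.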

How the data were processed

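H3K4me1 was measured by CUT&Tag in 3 whisker pad samples, and 3 IgG samples were not analysed here. Per the labels, reads were paired-end and processed against mm10 with Bowtie2 2.3, SAMtools 0.1.19, bedtools and SEACR 1.3. The authors called peaks in each replicate without IgG, keeping the top 1% of signal blocks in stringent mode. The treatment of duplicate reads is not given in the sources used here. The deposited signal columns (total and maximum signal per peak) are whole numbers with no scaling to depth, so signals were compared as percentiles within a replicate. Keeping a set share of blocks fixes how many peaks a list holds, so their number does not measure enrichment, and a peak missing from a list may lie just under its threshold. The study states 1 nominal depth for all samples, but the reads behind each peak are unknown from the lists, and no counting interval is given. The summed total signal was 822360552, 985881531 and 744342185 in replicates 1, 2 and 3, and the lowest total in a list was 14265, 24247 and 19337.

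Gene positions were taken from GENCODE vM21 and, where stated, from RefSeq for GRCm38.p6, the same build as mm10. The annotations differed by more than 1 kb in length for 12 members. The background for each member was the share of all protein-coding genes with a peak in its length bin (20 bins of equal size). Coordinates are 1-based. Sequences were read from GRCm38.p6, and 27 members matched the RefSeq promoter table. Differences between classes were tested by exact sign flips over the replicates, and genes are not replicates. Whether the samples came from separate embryos or litters is not given in the labels, so the spread may be partly technical. All members are named, and neighbouring genes where they share a peak. The members and lists were chosen with earlier results of these data known. The overlap and standardisation steps were tested on simulated data. Python 3.11.15, numpy 2.4.6, pandas 2.3.3, pysam 0.24.0 and matplotlib 3.10.9 were used. The alternatives were other flanks, peak subsets, attribution rules, length bins, percentile measures, start windows and leaving out each replicate.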

Additional observations from a re-analysis of the deposited data

How the results depend on the processing

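Over 107 alternative values of 13 results, 96 stayed within the limits set for them, 11 moved beyond them and 0 reversed. For the tested differences, the only limit was a change in the sign of the mean. A fall of the receptor excess over ligands to 6.06 points is therefore counted among the 96. With the stronger 50% of each list, 7 members had a peak in all replicates, and the mean count was 5 for ligands and 2 for receptors, with 43.7 peaks in the windows. With the strongest 10000 peaks, a mean of 6 ligands had one. The excess of members over genes of the same length, 30.6 percentage points, was 17.0 with the stronger 50% and 19.5 with the strongest 10000, above 0 in 3 of 3 replicates in both. With the gene body alone, receptors with a peak fell to 2, since the peaks of Fgfr3 and Fgfr4 lie beside the gene, and the excess of receptors over ligands fell to 6.06 points (p = 0.75, exact permutation test). Peaks in the windows, a mean of 79 with the GENCODE span of Fgfr2, numbered 42 when counted only for the gene with the nearest start and 38.7 with RefSeq boundaries, an alternative chosen after seeing the data. By signal per length, the median highest percentile of ligands was 38.1, and by maximum signal that of feedback genes was 67.9.

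Leaving out each replicate in turn gave 14 to 20 members with a peak in all of the others, 20 of them without replicate 3, where fewer lists have to agree. It gave means of 8.5 to 11 ligands, 3 to 4 receptors, 7 to 7.5 feedback genes and 74 to 83.5 peaks. The excess over genes of the same length ran from 26.7 to 35.4 percentage points, that of feedback genes over ligands from 25 to 31.8, and that of receptors over ligands from 31.8 to 50. The median percentiles ran from 48.4 to 54.7 for ligands, 64.1 to 81.8 for receptors and 74.4 to 77.6 for feedback genes, and 11 to 14 members had a peak over a start. No paired analysis was possible because pairing H3K4me1 with IgG needs IgG values, which were not used here. Differences between gene classes were taken within each replicate. The tests cannot pass 0.05 with 3 replicates, so they say nothing of stability. Groups of 3 are too small for a test of outlying samples.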
